A study of Mus musculus with 8 samples.

Results

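The subunits of the AMPA receptor and proteins that accompany them are described here through 10 genes, Gria1, Gria2, Gria3, Gria4, Cacng2, Cacng3, Cacng5, Cacng8, Grip1 and Grip2, chosen by name from the 46078 rows of the count table. All 10 were found and all 10 passed the filter on low counts, among 15996 rows that did. A further row under the name Cacng8 held 0 counts in every library and was not used. AMPA receptors are tetrameric glutamate-gated channels that carry most fast excitatory transmission in the hippocampus. Their pore is built from the subunits GluA1 to GluA4, encoded by Gria1 to Gria4. TARPs are transmembrane proteins encoded by Cacng genes. Those of type I, here from Cacng2, Cacng3 and Cacng8, bring the receptors to the surface and slow their gating. The PDZ proteins Grip1 and Grip2 hold receptors that contain GluA2 or GluA3 and link them to transport along dendrites.

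The data are poly(A) RNA-seq read counts from the hippocampus of mice aged 9 weeks on a C57BL/6J background. The T29-1 Cre group has 4 libraries, from mice that are Cre+/- for the transgene Tg(Camk2a-cre)T29-1Stl, in which the promoter of Camk2a, a gene of forebrain excitatory neurons, drives Cre recombinase. The WT group has 4 libraries, from mice without the transgene, and no floxed allele is named for either genotype. The comparison asks which transcripts differ in mice that carry the driver alone. The series title is about ectopic synaptotagmin 2 in a Camk2a-Cre line, a question that the 10 genes here do not bear on.

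The libraries held 23358289 to 27543742 counts in T29-1 Cre and 23694841 to 30882631 in WT. In a principal component analysis of log2 CPM (counts scaled to library size with TMM), WT replicate 4 lay far from the rest on the leading axis (score -33.4, against -0.687 to 8.16 in T29-1 Cre and 2.41 to 8.74 in the other WT libraries). In that library genes with over 5000 bp of exon had a median 0.11 below the other WT libraries on the log2 scale, and genes under 2500 bp a median 0.18 above them. Astrocyte markers summed to 3649 CPM in it, against 4585 to 4749 CPM in T29-1 Cre and 4609 to 4779 CPM in the other WT libraries, and their part in the results was not tested. Markers of the labelled tissue were present, with summed levels of 7573 to 8223 CPM in T29-1 Cre and 8038 to 8309 CPM in WT for excitatory neurons, and of 754 to 935 CPM in T29-1 Cre and 848 to 886 CPM in WT for CA1 pyramidal cells. Markers of the cerebellum, another brain region, summed to 35.8 to 41.2 CPM in T29-1 Cre and 36.5 to 38.7 CPM in WT. Thalamic markers summed to 125 to 141 CPM in T29-1 Cre and 119 to 134 CPM in WT. Neocortical and subicular markers summed to 450 to 591 CPM in T29-1 Cre and 487 to 521 CPM in WT. Whether RNA of neighbouring regions is in the samples was not tested.

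The coding sequence around the Q/R site is shown because the edited codon sets GluA2 apart from the other subunits. In the pore loop of GluA2, editing of the RNA changes a glutamine codon to an arginine codon, and the edited subunit makes the channel nearly impermeable to calcium. The stretches below are 45 coding bases in the transcript sense from the GENCODE M21 transcripts on GRCm38, each inside 1 coding exon, with the glutamine codon at that position in capitals.
Gria1 (chr11:57243073-57243117, plus strand): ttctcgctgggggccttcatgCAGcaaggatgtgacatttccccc
Gria2 (chr3:80706890-80706934, minus strand): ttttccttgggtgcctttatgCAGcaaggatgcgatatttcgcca
Gria3 (chrX:41610244-41610288, plus strand): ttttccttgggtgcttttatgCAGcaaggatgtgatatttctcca
Gria4 (chr9:4464116-4464160, minus strand): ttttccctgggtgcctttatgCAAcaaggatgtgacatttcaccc

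Gria2 and Gria3 shared 42 of these 45 bases and the other pairs 36 to 39. The unedited genome thus has a glutamine codon in all 4 genes, and counts per gene do not separate edited from unedited Gria2 RNA. Over whole transcripts, the longest exact run common to any pair of Gria genes was 59 bases (Gria3 and Gria4), and it was at most 23 bases among the Cacng members and 23 bases between Grip1 and Grip2. These runs are shorter than the reads of 150 bases, although the sources used here do not state the rule for reads with several places.

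The ends of the coding sequences are shown because they encode the tails that the scaffolds bind. Grip proteins bind the tails of GluA2 and GluA3, and PSD-95 binds the tails of type I TARPs, which Cacng2, Cacng3 and Cacng8 encode, while Cacng5 encodes a type II TARP. Each line gives the last 30 coding bases before the stop codon of the annotated principal transcript, with the final 4 codons in capitals.
Gria1 (chr11:57327614-57327643, plus strand): tcagggatgcccttgggaGCCACAGGATTG
Gria2 (chr3:80689109-80689138, minus strand): aacgtatatggcatcgagAGTGTTAAAATT
Gria3 (chrX:41672432-41672461, plus strand): aacgtgtatggaacagaaAGTGTTAAGATC
Cacng2 (chr15:77995152-77995181, minus strand): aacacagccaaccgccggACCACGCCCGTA
Cacng3 (chr7:122768814-122768843, plus strand): aatccggccaacagacgtACCACGCCTGTC
Cacng8 (chr7:3415573-3415602, plus strand): aacacgctcaacaggaaaACCACGCCCGTG
Cacng5 (chr11:107877355-107877384, minus strand): gactatgaccagatgtcaTCATCTCCCTGC

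In the final 12 bases Gria2 and Gria3 matched at 10 positions, against 1 or 2 for every pair with Gria1 or Gria4. Cacng2, Cacng3 and Cacng8 matched each other at 10 or 11 of 12 positions, and Cacng5 matched each of them at 5.

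To set the genes beside each other, CPM was divided by the summed length of all annotated exons of the gene. On this scale Gria1 had the highest level, at 203 ± 8.80 CPM per kb in T29-1 Cre and 201 ± 16.7 CPM per kb in WT (SD, n = 4 each). Cacng8, the TARP gene known for its expression in the hippocampus, followed at 101 ± 4.31 CPM per kb in T29-1 Cre and 101 ± 6.26 CPM per kb in WT. Gria2 was at 64.3 ± 2.27 CPM per kb in T29-1 Cre and 64.2 ± 2.54 CPM per kb in WT. The order then ran over both genotypes through Gria3 (mean 23.7 CPM per kb), Cacng3 (19.1), Cacng2 (17.7), Gria4 (10.1), Grip1 (4.4), Cacng5 (2.68) and Grip2 (1.56).

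Neighbours in this order were apart in all 8 libraries except for Cacng3 and Cacng2, where Cacng3 was the higher in 6 of 8 libraries and their ranges overlapped. Gria3 and Cacng3 also overlapped in range, but Gria3 was the higher in each of the 8 libraries. Dividing by the principal transcript alone kept the order but for Cacng5 and Grip2, which changed places (2.77 and 2.81 CPM per kb over all libraries). Without division by length the order changed further. Gria2 (mean 999 CPM over all libraries) then lay above Cacng8 (237 CPM), and Grip2 (14.6 CPM) above Cacng5 (10.3 CPM). Cacng2 (97.5 CPM) and Gria4 (63.6 CPM) lay above Cacng3 (53.1 CPM). The place of Cacng8 above Gria2 thus depends on dividing by length. The summed exon length of Gria2 is 15548 bp over 8 annotated transcripts, against 10371 bp in its principal transcript. Its level per kb therefore depends on the gene model.

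**Figure D1:**
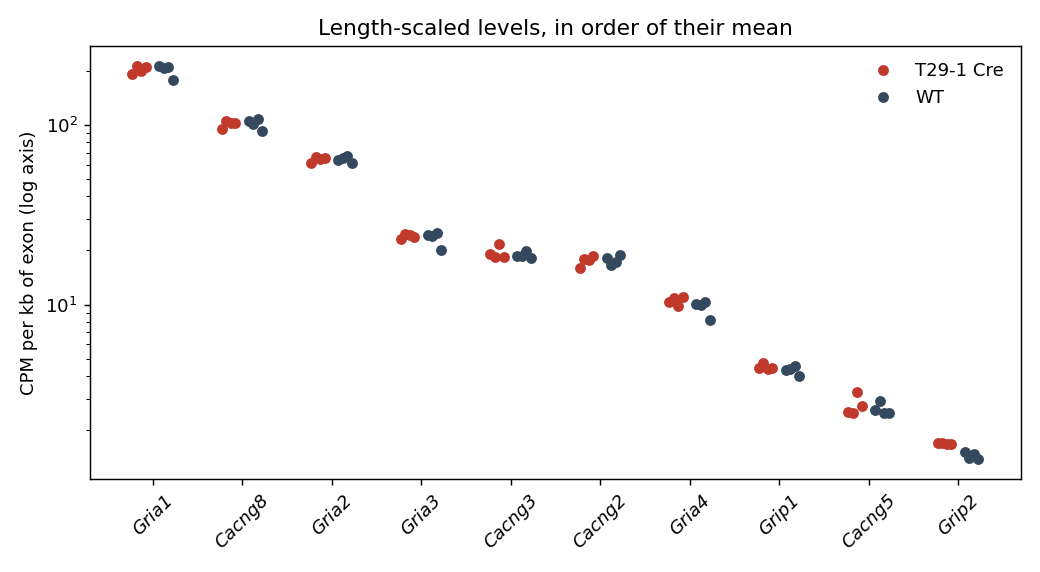
Length-scaled level of the 10 genes (vertical axis, CPM per kb of exon, log scale), 1 point per library, T29-1 Cre in red and WT in dark blue. Genes run from Gria1, at a mean of 202 CPM per kb over all libraries, to Grip2 at 1.56, and the genotypes lie on top of each other for each gene but Grip2.

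None of the 10 genes differed between the genotypes past the threshold. With edgeR's quasi-likelihood test at a Benjamini-Hochberg adjusted p under 0.05, 0 of the 10 were called, where 1 of 15996 rows (0.00625%) was called in the whole table, and the smallest adjusted p of a member was 0.998. At an unadjusted p under 0.05 there was 1 of 10, Grip2, against 388 of all rows (2.43%), and DESeq2 and limma-voom each also gave 0 called and 1 at an unadjusted p under 0.05. The count over all rows moved with single libraries, being 678 without WT replicate 3 and 287 to 463 without any other library. The log2 fold change of T29-1 Cre over WT was above 0 for 9 of 10 members, with a median of 0.04, against 49.7% of all tested rows, with a median of -0.00075. This count followed single libraries, since it was 6 without T29-1 Cre replicate 2, 3 or 4 or without WT replicate 4, and 10 without T29-1 Cre replicate 1. The 95% intervals of the 10 fold changes lay between 0.91-fold and 1.29-fold. In bulk tissue, fewer cells of a type and less RNA per cell cannot be told apart. Nothing in the labels states that each library is a separate mouse, so the p-values reflect only how far these samples vary, and that variation may be technical.

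**Figure D2:**
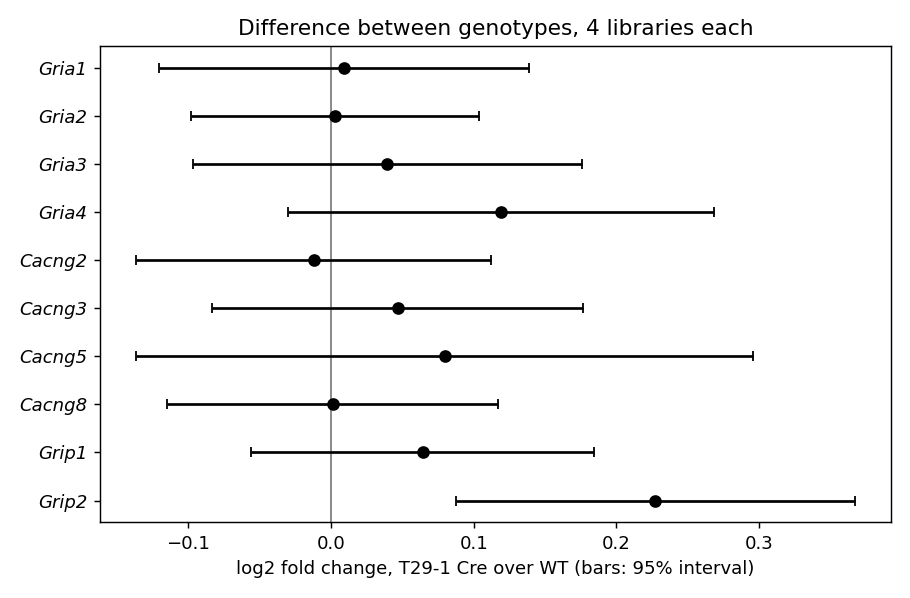
log2 fold change of T29-1 Cre over WT (horizontal axis) for the 10 genes, with bars for the 95% interval from edgeR, n = 4 libraries per genotype. The interval of Grip2, from 0.09 to 0.37, is the one that does not reach 0, and that of Cacng5 is the widest.

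The main pore subunits were at nearly the same level in both genotypes. Gria1 encodes GluA1, which is prominent in CA1 pyramidal cells and is added to synapses during potentiation. It had 1161, 1275, 1201 and 1262 CPM in T29-1 Cre replicates 1 to 4, and 1288, 1253, 1260 and 1068 CPM in WT replicates 1 to 4. WT replicate 4 was the lowest of the 8 libraries, and the genotypes overlapped. The log2 fold change was 0.0088 (SE 0.0603, edgeR adjusted p = 0.998), with an interval from 0.92-fold to 1.1-fold.

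Gria2 encodes the edited subunit that sets the calcium permeability of the receptor. It had 951, 1034, 1003 and 1013 CPM in the T29-1 Cre libraries, and 993, 1009, 1043 and 948 CPM in the WT libraries. Each genotype held 1 low library, T29-1 Cre replicate 1 and WT replicate 4, and the rest overlapped. Its log2 fold change was 0.0028 (SE 0.0468, edgeR adjusted p = 0.998), with an interval from 0.93-fold to 1.07-fold, the narrowest of the 10. Adarb1, whose product ADAR2 edits the Q/R site, was picked out for that role after its values were known. It was at 203 ± 7.87 CPM in T29-1 Cre and 200 ± 11.6 CPM in WT (SD, n = 4 each), and its log2 fold change was 0.02 (edgeR adjusted p = 0.998).

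Gria3 encodes GluA3, the other subunit whose tail Grip proteins bind, and lies on the X chromosome. It had 229, 243, 241 and 233 CPM in T29-1 Cre, against 240, 238, 246 and 197 CPM in WT. The T29-1 Cre libraries lay inside the WT range, which WT replicate 4 alone extended downwards. T29-1 Cre over WT gave a log2 fold change of 0.04 (SE 0.0634), which became -0.03 without WT replicate 4.

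Gria4 encodes GluA4, a subunit of fast kinetics that in the hippocampus is strong in parvalbumin interneurons. It had 65.0, 68.9, 62.0 and 69.3 CPM in T29-1 Cre and 63.6, 62.9, 65.5 and 52.0 CPM in WT. T29-1 Cre replicates 2 and 4 lay above every WT library, and WT replicate 4 lay below all others. Gria4 had a log2 fold change of 0.12 (SE 0.0695, edgeR adjusted p = 0.998, exact permutation p = 0.20), and it was 0.05 without WT replicate 4. The 12 interneuron markers summed to 1546, 1533, 1471 and 1600 CPM in T29-1 Cre and 1494, 1508, 1512 and 1493 CPM in WT. They were thus highest in T29-1 Cre replicate 4 and lowest in T29-1 Cre replicate 3, the libraries in which Gria4 was highest and lowest within that genotype, but so were the sums of the pan-neuronal, CA2 and CA3, oligodendrocyte and oligodendrocyte precursor markers. The part of these markers in the Gria4 values was not tested.

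In the subunit pool, the shares of Gria1, Gria2 and Gria3 differed between the genotypes by less than their spread. Per kb of exon, Gria1 made up 67.2% ± 0.401 of the 4 Gria transcripts in T29-1 Cre and 67.4% ± 0.855 in WT, and Gria2 made up 21.3% ± 0.245 in T29-1 Cre and 21.5% ± 1.02 in WT (SD, n = 4 each). Gria2 had its highest share, 22.9%, in WT replicate 4, against 21.1% to 21.7% in T29-1 Cre and 20.5% to 21.6% in the other WT libraries. Gria3 held 7.96% ± 0.255 in T29-1 Cre and 7.80% ± 0.205 in WT, and Gria4 3.49% ± 0.129 in T29-1 Cre and 3.23% ± 0.098 in WT. The Gria4 shares overlapped, as T29-1 Cre replicate 3 (3.30%) lay below WT replicate 3 (3.34%). These shares have no test here, and those of all 4 genes move with the length used. By the principal transcript Gria1 held 59.5% in T29-1 Cre and 59.7% in WT, and Gria2 25.3% in T29-1 Cre and 25.6% in WT. The share of Gria3 was also higher by that length than by summed exon length in both genotypes. That of Gria4 was lower by that length, at 3.25% in T29-1 Cre and 3.01% in WT. Undivided by length, Gria1 held 48.4% in T29-1 Cre and 48.5% in WT, and Gria4 2.62% in T29-1 Cre and 2.43% in WT.

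**Figure D3:**
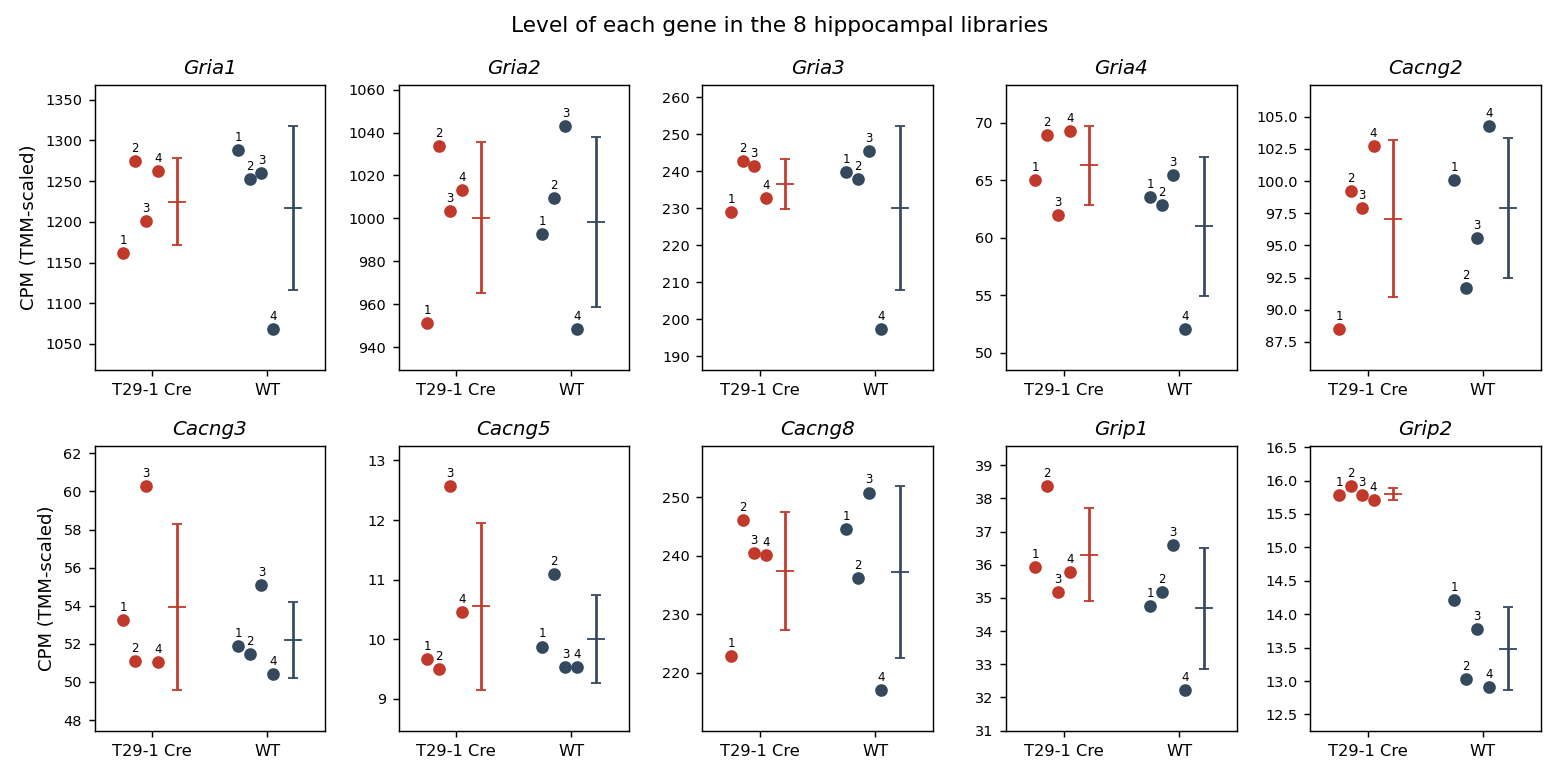
Level of each gene (vertical axis, TMM-scaled CPM, its own scale in each panel, not starting at 0) in the 4 T29-1 Cre libraries (red, left) and the 4 WT libraries (dark blue, right), numbered by replicate, with the mean and SD beside them. WT replicate 4 is the lowest point for all 4 Gria genes, Cacng3, Cacng8, Grip1 and Grip2, and only for Grip2 are the genotypes fully apart.

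Among the TARP genes, Cacng8 encodes γ-8, the main TARP of hippocampal pyramidal cells. It had 223, 246, 240 and 240 CPM in T29-1 Cre and 245, 236, 251 and 217 CPM in WT. The lowest libraries were WT replicate 4 and T29-1 Cre replicate 1, as for Gria2. The log2 fold change was 0.0012 (SE 0.0539, edgeR adjusted p = 0.9995), with an interval from 0.92-fold to 1.08-fold. Among the 4 TARP members alone, Cacng8 made up 71.8% ± 0.993 of the transcripts per kb in T29-1 Cre and 72.0% ± 1.33 in WT (SD, n = 4 each). That share leaves out the TARP genes Cacng7, at 127 ± 5.64 CPM in T29-1 Cre and 128 ± 1.35 CPM in WT, and Cacng4, at 29.9 ± 1.52 CPM in T29-1 Cre and 30.7 ± 0.861 CPM in WT, so it is not the share of all TARP transcripts.

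Cacng2 encodes γ-2 or stargazin, the TARP that cerebellar granule cells need for AMPA receptors at their synapses. It had 88.5, 99.3, 97.9 and 103 CPM in T29-1 Cre and 100, 91.7, 95.5 and 104 CPM in WT. It is the 1 member that was highest in WT replicate 4, and its lowest library was T29-1 Cre replicate 1. Its log2 fold change, -0.01 (SE 0.0579), was the 1 value below 0, but it was 0.03 without T29-1 Cre replicate 1 and 0.02 without WT replicate 4. Exons of Cacng2 share 323 bp with A730060N03Rik on the opposite strand, which had 368 counts over all libraries, against at least 2274 for Cacng2 in each library, and whether counting used strand is not given in the sources used here.

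Cacng3 and Cacng5 had their highest level in the same library. Cacng3 encodes γ-3, a type I TARP of the forebrain, and had 53.3, 51.1, 60.3 and 51.1 CPM in T29-1 Cre and 51.9, 51.5, 55.1 and 50.4 CPM in WT. Cacng5 encodes γ-5, a type II TARP, and had 9.67, 9.50, 12.6 and 10.5 CPM in T29-1 Cre and 9.88, 11.1, 9.53 and 9.53 CPM in WT, from 221 to 348 counts per library. In T29-1 Cre replicate 3 these genes lay 0.19 and 0.29 above their means over all libraries on the log2 scale. The log2 fold changes were 0.05 (SE 0.0605) for Cacng3 and 0.08 (SE 0.101) for Cacng5, and they were -0.01 and -0.02 without that library.

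The same library had the highest sum of the 8 dentate granule cell markers, 678 CPM against 487 to 561 CPM in the other T29-1 Cre libraries and 584 to 614 CPM in WT. It had the lowest sum of the CA2 and CA3 markers, a list that includes Cacng5, at 295 CPM against 297 to 377 CPM in the other T29-1 Cre libraries and 316 to 353 CPM in WT. Choroid plexus markers summed to 52.7 CPM in it, against 25 to 36.2 CPM in the other T29-1 Cre libraries and 22.2 to 27.5 CPM in WT, with 5 of the 7 (Folr1, Clic6, Kcnj13, Aqp1 and Otx2) under 1 CPM on average. Neocortical and subicular markers were also highest in T29-1 Cre replicate 3, at 591 CPM against 450 to 589.6 CPM in the other T29-1 Cre libraries and 487 to 521 CPM in WT. Pan-neuronal markers (3812 CPM), interneuron markers (1471 CPM), oligodendrocyte markers (3549 CPM) and oligodendrocyte precursor markers (299 CPM) were lowest in it of all 8 libraries. The part of these markers in the values of Cacng3 and Cacng5 was not tested.

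**Figure D4:**
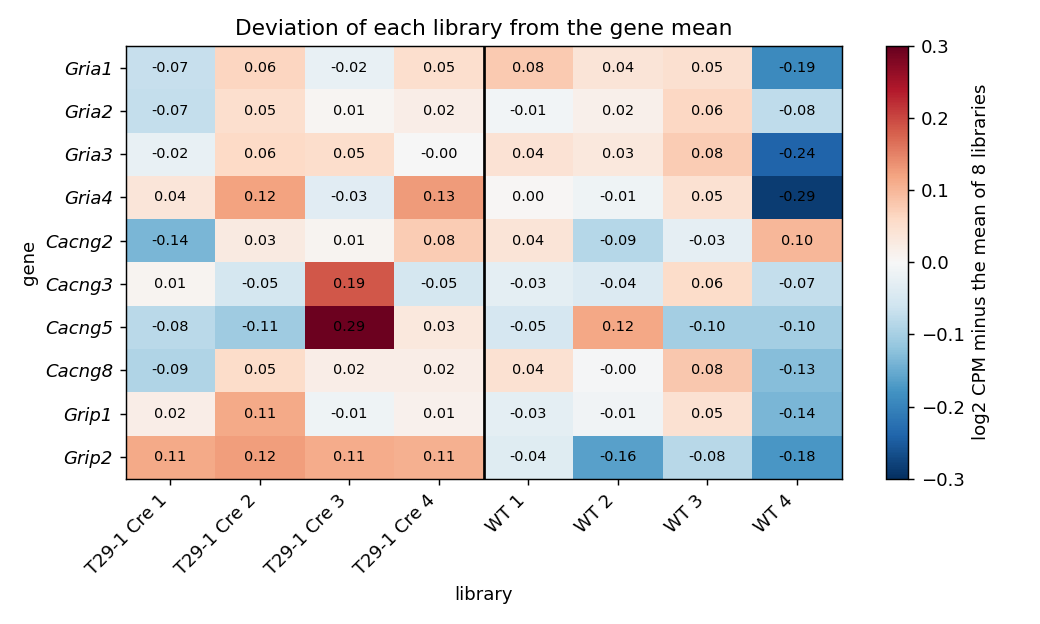
Deviation of each library from the mean of all 8 libraries for the 10 genes, in log2 CPM (colour and printed value), T29-1 Cre libraries left of the line and WT libraries right of it. WT replicate 4 is below the mean for 9 of the 10 genes, Cacng2 being the exception, and Grip2 is above its mean in all 4 T29-1 Cre libraries and below it in all 4 WT libraries.

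Grip2 was the member in which the genotypes lay furthest apart. It encodes a protein with several PDZ domains that is close to Grip1. Grip2 had 15.8, 15.9, 15.8 and 15.7 CPM in T29-1 Cre and 14.2, 13.0, 13.8 and 12.9 CPM in WT. Every T29-1 Cre library lay above every WT library. This held in the same direction for 135 of the 15996 rows tested (0.844%), and the opposite order, in which every T29-1 Cre library is below every WT library, for 154 (0.963%) and for 0 of the 10 members. The values of Grip2 were 15.8 ± 0.084 CPM in T29-1 Cre and 13.5 ± 0.621 CPM in WT (SD, n = 4 each), a 1.17-fold difference with an interval from 1.06-fold to 1.29-fold. The log2 fold change of 0.23 (SE 0.065) had an unadjusted p of 0.0037 in edgeR's quasi-likelihood test, the 7th smallest of 15996, and an adjusted p of 0.998, so that it did not pass. The exact two-sided permutation test over 70 assignments gave p = 0.029, the smallest it can give, and it is no separate support because Grip2 was already known as a gene of small p in these libraries.

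The spread of Grip2 in T29-1 Cre was below counting error. Its 4 libraries held 370 to 437 counts, for which counting error alone gives an SD of 0.779 CPM, against the 0.084 CPM observed. In WT the observed SD of 0.621 CPM was also under the 0.712 CPM of counting error. In the authors' deposited table Grip2 had a log2 fold change of 0.23 and a p-value of 0.0035, which ranked 32nd of 17999 genes and gave an adjusted p, computed here, of 1.00. Leaving out 1 library at a time moved the log2 fold change between 0.21 and 0.25.

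Grip1, which also binds kinesin and steers receptors into dendrites, had 35.9, 38.4, 35.2 and 35.8 CPM in T29-1 Cre and 34.8, 35.2, 36.6 and 32.2 CPM in WT. All 4 T29-1 Cre libraries lay above the WT mean, but the genotypes overlapped. Grip1 had a log2 fold change of 0.06 (SE 0.056, edgeR adjusted p = 0.998, exact permutation p = 0.29). Per kb of exon, the ratio of Grip2 to Grip1 was 0.379, 0.357, 0.387 and 0.378 in T29-1 Cre and 0.352, 0.319, 0.324 and 0.345 in WT. The ratio did not overlap between the genotypes, but it has no test here, and it rests on the same Grip2 counts.

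In GRCm38 the genes lie on several chromosomes. Gria1 (57011387 to 57330244, plus strand) and Cacng5 (107874605 to 107915055, minus strand) share chromosome 11, and Cacng8 (3390683 to 3415648) and Cacng3 (122670492 to 122769393), both on the plus strand, share chromosome 7. Grip2 is on the minus strand of chromosome 6 from 91761509 to 91827250, and no other annotated gene overlaps it. Grip1 spans 119453830 to 120087261 of chromosome 10 (plus strand), and the genes annotated inside or across it, Helb among them, share 0 bp of exon with it. MicroRNA genes share exon bases with Gria2, Gria3, Gria4 and Cacng8, with 0 to 15 counts each over all libraries.

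The patterns over the libraries were alike for many genes. By Pearson's correlation of log2 CPM over the 8 libraries, among 11492 genes that averaged 5 CPM or more, the gene most like Gria1 was Entpd1 (r = 0.993), that most like Gria2 was Fam171a1 (r = 0.984), that most like Gria3 was Kcnq3 (r = 0.993) and that most like Gria4 was Pde4d (r = 0.997). These are descriptions of the highest of many values and have no p. These correlations all include WT replicate 4. On the log2 scale, Gria1, Gria2, Gria3 and Gria4 were 0.25, 0.098, 0.29 and 0.30 below the other WT libraries in it. Correlations over 0.9 were found for 390, 38, 691 and 479 genes with Gria1, Gria2, Gria3 and Gria4 in turn. Without that library the values for the named genes were 0.974, 0.980, 0.966 and 0.988 over 7 libraries. Kcnq3 was then the 3rd most like Gria3, and the other pairs kept their first place.

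Other genes of the pathway showed no call either. Of 29 further auxiliary and complex proteins, all tested, 0 were called and 1 had an unadjusted p under 0.05 in edgeR's test, against 2.43% of all rows, with 15 higher and 14 lower values in T29-1 Cre and a median log2 fold change of 0.0087. The 3 with the smallest p were Prrt1, which encodes an AMPA receptor partner, at 255 ± 12.6 CPM in T29-1 Cre and 275 ± 7.74 CPM in WT (SD, n = 4 each), Cnih2, which encodes a cornichon that slows AMPA receptor gating, at 478 ± 9.33 CPM in T29-1 Cre and 515 ± 46.5 CPM in WT, and Porcn, at 65.1 ± 2.41 CPM in T29-1 Cre and 69.1 ± 1.45 CPM in WT. Prrt1 (log2 fold change -0.11, SE 0.0483) and Porcn (-0.09, SE 0.0471) were lower in every T29-1 Cre library than in any WT library, which makes 2 of the 29 genes, against 0.963% of all rows. Porcn had an unadjusted p of 0.092 in edgeR's test. The list was chosen with earlier results of these data known, so the 2 of 29 are no test of it. Cnih2 (-0.11, SE 0.0584) overlapped, and its highest library was WT replicate 4, at 583 CPM against 468 to 489 CPM in T29-1 Cre and 484 to 507 CPM in the other WT libraries.

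Of 25 genes of trafficking and anchoring, 24 were tested and 1, Epb41l1, had no row under that name. None of the 24 was called, with 0 at an unadjusted p under 0.05 in edgeR's test, 14 higher and 10 lower values, and a median of 0.01. Those with the smallest p were Akap5, which anchors kinases and calcineurin at the receptor (0.11, SE 0.0632), Rab8a, a GTPase of membrane transport (-0.11, SE 0.0633), and Myo5a, an actin motor (0.14, SE 0.0934). In WT replicate 4 Akap5 and Myo5a were the lowest of the 8 libraries, at 73.0 and 369 CPM, and Rab8a the highest, at 35.4 CPM.

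All 16 enzymes that modify AMPA receptors were tested and 0 were called, with 0 at an unadjusted p under 0.05 in edgeR's test, 7 higher and 9 lower values, and a median of -0.01. The smallest p belonged to Camk2b, the beta subunit of CaM kinase II (-0.08, SE 0.0446), Ppp3ca, the catalytic subunit of calcineurin (-0.07, SE 0.0476), and Prkacb, a catalytic subunit of protein kinase A (0.07, SE 0.048). Each had libraries that overlapped between the genotypes.

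**Figure D5:**
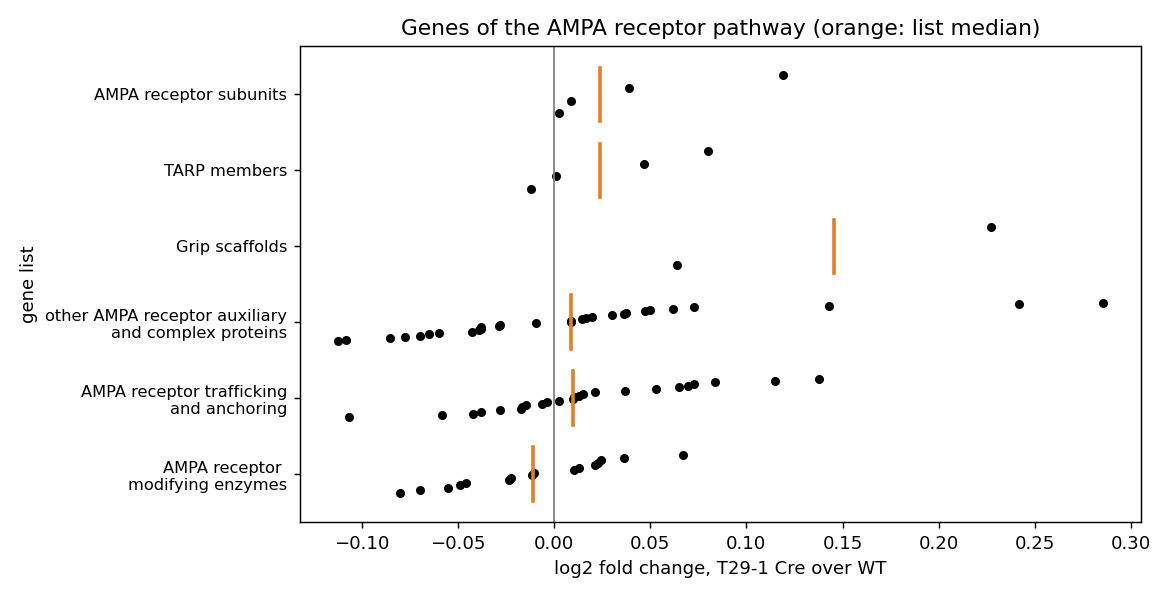
log2 fold change of T29-1 Cre over WT (horizontal axis) for the members in 3 groups and for the 3 further lists of the AMPA receptor pathway, 1 point per tested gene, with the median of each list in orange. List medians lie between -0.01 and 0.15, the latter for the Grip genes, and no gene shown was called.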

How the data were processed

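Per the labels' protocols, total RNA of the hippocampus was selected for poly(A) and made into directional libraries, which were sequenced together as paired reads of 150 bases. The tools named in the submitters' processing notes are STAR (2.6.1d), featureCounts and edgeR (3.11), with the build GRCm38. The authors deposited unscaled read counts per gene name for the 8 libraries, and a table of their comparison whose log2 fold changes and p-values are cited as theirs.

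The counts were fitted across all genes in R 4.3.3 with edgeR 4.0.16: filterByExpr at default settings (minimum count 10, minimum total 15), TMM scaling, and the quasi-likelihood test of T29-1 Cre over WT with no covariate and Benjamini-Hochberg adjustment over 15996 rows. SE is the size of the log2 fold change over the root of F. log2 CPM used a prior count of 2, and the exact permutation tests used it. Lengths, positions and transcript sequences are those of GENCODE M21, while the release used for counting is not given in the sources used here. Alternatives were DESeq2 1.42.0, limma-voom 3.58.1, other scalings, filters, a replicate block, leaving out each library, and other lengths. The fitting script was tested on simulated data. Each library was counted once. Pairs of libraries of a genotype differed by more than counting error (chi-square per degree of freedom 3.16 to 17.8), which does not show that they come from separate mice.

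Members and gene lists were chosen with earlier results of these data known. All members were named, and of each further list the 3 genes of smallest p, since none passed. For each Gria gene the most correlated gene outside the members was named. Adarb1 was added after its values were seen.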

Additional observations from a re-analysis of the deposited data

Results flagged for a closer look

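For 10 genes and 3 composition measures, the 4 libraries of a genotype were searched for 1 that lay far outside the range of its fellows, and 3 of the 26 groups held one, where chance flags about 1 in 20 groups. The groups share libraries and genes, so the flags are not independent, and that rate gives no test of their number. All 3 flags were in WT replicate 4. Its Gria1 level was 10.06 log2 CPM, against 10.29 to 10.33 in the other WT libraries. Its Gria3 level was 7.62 log2 CPM, against 7.89 to 7.94. The share of Cacng8 among the transcripts of Cacng2, Cacng3, Cacng5 and Cacng8 was 70.1% in it, against 72.6% to 73.0% in the other WT libraries.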

How the results depend on the processing

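None of the 10 genes was called in any of the 16 alternatives run for each of them. Of the 160 values so obtained, 141 kept their direction and 19 reversed, and Gria4, Grip1 and Grip2 never reversed. With upper-quartile scaling Gria2 and Cacng8 had log2 fold changes of -0.0037 and -0.0051. Leaving out 1 library at a time gave ranges of -0.048 to 0.036 for Gria1, -0.021 to 0.026 for Gria2, -0.027 to 0.072 for Gria3, -0.042 to 0.030 for Cacng2, -0.012 to 0.073 for Cacng3, -0.017 to 0.13 for Cacng5 and -0.038 to 0.030 for Cacng8, and the cause was not tested. Gria4 ranged from 0.05 to 0.15, Grip1 from 0.03 to 0.09 and Grip2 from 0.21 to 0.25.

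Over all genes tested, 2 were called, in place of 1, with no filter on low counts and with the replicate block, and neither setting called a member. The block left the log2 fold change of Grip2 at 0.23 (edgeR adjusted p = 0.997). The deviations of libraries with the same replicate number correlated at -0.141, 0.126, 0.0101 and -0.0175 across genes. These values show no common pattern by number, but they cannot tell whether the libraries were handled in pairs.

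Undivided by length, the share of Gria2 was 39.6% in T29-1 Cre and 39.9% in WT, that of Cacng8 59.5% in T29-1 Cre and 59.7% in WT, and the ratio of Grip2 to Grip1 0.436 in T29-1 Cre and 0.389 in WT. By the principal transcript, a length chosen after seeing the data, they were 25.3%, 75.8% and 0.295 in T29-1 Cre and 25.6%, 76.1% and 0.264 in WT. Depth limits Cacng5 and Grip2 most, with 221 to 348 and 309 to 437 counts per library.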
